A study of Arabidopsis thaliana with 12 samples.

Results

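The comparison described here set root explants of a line labelled CPL4RNAi, kept without cytokinin, against wild-type root explants kept with a low dose of cytokinin. It asked for which genes the labelled line without hormone reached, passed or missed the level of the hormone-treated wild type. Its members were the rows of the deposited gene table that pair these groups, 33557 features of the 201342 rows that cover all 6 pairs of the 4 groups. Of these features the authors tested 19309, listed 14247 as not tested and gave 1 a high-data status.

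Both groups were Arabidopsis thaliana of the Columbia ecotype, 18 days old at harvest, with 3 samples each described by the series as biological triplicates. WT(+) was wild type (Col-0 gl1) on modified shoot-inducing medium with the cytokinin 2iP at 0.05 mg/L, which the labels give as a fraction of the standard dose. CPL4RNAi(-) was the labelled line on the same medium with 0 mg/L 2iP. All explants came from 10-day-old seedlings whose shoots had been cut off, and had spent 5 days on callus-inducing medium before 72 hours on the shoot-inducing medium. Reference values come from the same pre-culture without 2iP in wild type, WT(-), and with 2iP in the labelled line, CPL4RNAi(+), again 3 samples each. Genotype label and medium differed together between the compared groups, so their contributions cannot be told apart from this pair alone. The number of independent transgenic lines, the promoter of the RNAi construct and the number of pooled plants per sample were not given in the sources used here.

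CPL4 encodes a phosphatase that removes phosphates from the C-terminal tail of RNA polymerase II. Its FPKM (AT5G58003, chromosome 5, 23479804 to 23482048, TAIR10) stood at 13.9 FPKM in WT(+) and at 36.3 FPKM in CPL4RNAi(-), a level 2.61-fold higher under the RNAi label. WT(-) held 14.5 FPKM and CPL4RNAi(+) 32.2 FPKM, so the value was high wherever the label read CPL4RNAi and low wherever it read wild type. A knockdown would be read as a lower level, and another label field calls the same samples CPL4 KO. The sequence of the RNAi construct is not given in the sources used here, and whether these FPKM values hold RNA from the construct as well as from the CPL4 gene was not tested. Directions below therefore refer to "the group labelled CPL4RNAi(-)", or the labelled group for short, and not to a loss of CPL4. Among the related phosphatases, CPL3 was called higher at 17.2 against 11.8 FPKM, while CPL1 (27.5 against 22.8, overlapping another gene) and CPL2 (24.2 against 21.7) were not called.

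Cytokinins are adenine-derived hormones that plant cells sense with histidine kinase receptors. The signal passes through phosphotransfer proteins to type-B response regulators, which switch on the type-A response regulators and the cytokinin oxidases, and both of these dampen the signal in turn. In root explants a pre-culture rich in auxin produces callus with features of a lateral root primordium, and cytokinin in the following medium directs part of that callus toward shoot meristems. Xylem, the water-conducting tissue, and the cambium that supplies it also respond to both hormones.

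Expression was given as FPKM, a fragment count scaled to transcript length and sequencing depth, with 1 value per group. Replicate values were not shown, so no spread between replicates could be seen, and the depth of each library is unknown. A gene was called different where its q-value in the authors' deposited table did not exceed 0.05. The log2 fold was taken as CPL4RNAi(-) over WT(+), so a positive fold is higher in the labelled group. Its standard error was derived from the fold and the p-value, as the fold divided by the matching normal quantile, and so carries the variance modelled in the authors' test. For the 4309 calls at the smallest p-value in the table (5e-05, q-value 0.000272), this error is an upper bound of 0.247 of the fold. A missed threshold does not show that levels were alike, so genes not called are given with an approximate 95% interval of the fold. At a given p-value this interval widens with the fold, so for a nearly silent group it is no guide to likely levels.

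Of the 19309 tested features, 4131 (21.4%) were called higher and 4368 (22.6%) were called lower in the labelled group, 44% in all. A change of at least 2-fold was seen in 1196 of the higher and 1227 of the lower calls. The median log2 fold over all tested features was -0.0036, and the number of features at 1 FPKM or more was similar, 18155 in WT(+) and 18486 in CPL4RNAi(-). The plastid genome held 2.34% of the summed FPKM in WT(+) and 2.74% in CPL4RNAi(-), and the mitochondrial genome 2.17% and 2.61%. For the reference comparisons, 1239 of 18827 tested features (6.58%) were higher and 699 (3.71%) lower in WT(+) than in WT(-), 10.3% in all. In CPL4RNAi(-) over WT(-), 4342 of 19277 (22.5%) were higher and 4150 (21.5%) lower, 44.1% in all. These comparisons share groups with the main one, so their values are given side by side and no overlap was counted. The counts of each gene list below stand against these shares. WOX5 of the root stem cell niche, a marker of the labelled tissue, was at 135 FPKM in WT(+) and 55.2 in CPL4RNAi(-). The stomatal regulators MUTE and FAMA of leaf epidermis were listed at 0 in both, and SPCH at 0.0228 and 0 FPKM. Other genes of the shoot epidermis list were expressed in both groups. FDH stood at 132 FPKM in WT(+) and 119 in CPL4RNAi(-), PDF1 at 20.7 and 10.1, and PDF2 at 8.65 and 9.64.

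**Figure D1:**
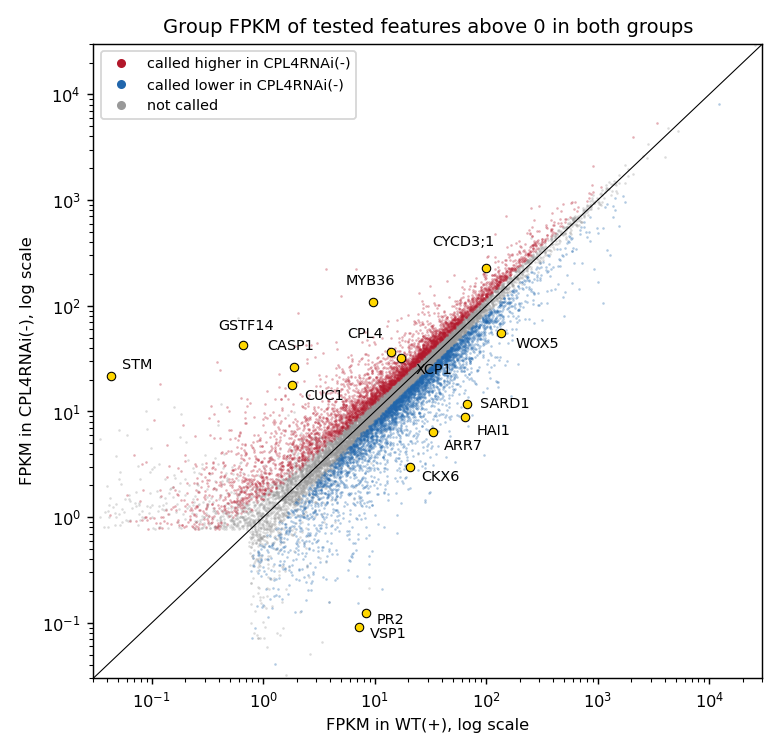
Group FPKM of each tested feature above 0 in both groups, WT(+) on the x axis and CPL4RNAi(-) on the y axis, both on log scales; red and blue points are calls at a q-value at or under 0.05, grey points are not called, gold points are named genes and the line marks equal levels. Points spread to both sides of the line, with 4131 features called higher and 4368 called lower; STM is the point at 0.0436 and 21.7 FPKM, far from the line but not called.

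The labelled group without cytokinin missed the cytokinin response of treated wild type. Of 9 tested type-A response regulators, the early response genes that feed back on cytokinin signalling, 7 were called lower and none higher, with a list median log2 fold of -1.20. In WT(+) over WT(-), 8 of 9 of them were called higher and none lower. In CPL4RNAi(-) over WT(-), 0 of 7 were called higher and 3 lower.

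ARR7 (AT1G19050, chromosome 1, 6577833 to 6579178) showed the largest called fold of the family. Its FPKM was 9.54 in WT(-), 33.5 in WT(+), 6.35 in CPL4RNAi(-) and 46.7 in CPL4RNAi(+). The log2 fold of CPL4RNAi(-) over WT(+) was -2.40 with a standard error of at most 0.591. Both groups with 2iP were high and both groups without it low. ARR5 followed the same order, with 38.6 FPKM in WT(-), 74.4 in WT(+), 32.4 in CPL4RNAi(-) and 78.6 in CPL4RNAi(+), a log2 fold of -1.20 (standard error at most 0.296). ARR3 fell from 9.31 FPKM in WT(+) to 2.92 in the labelled group, ARR4 from 163 to 86.7 and ARR6 from 37.0 to 18.6. ARR8 (21.0 against 12.4 FPKM, log2 fold -0.76) showed the smallest called fold of the family, and ARR9 fell from 139 to 67.2 FPKM (log2 fold -1.05). ARR7, ARR8 and ARR9 in CPL4RNAi(-) were also called lower than in WT(-), which held 9.54, 16.1 and 108 FPKM. ARR15 (3.91 against 0.156 FPKM) and ARR16 (0.882 against 0.0775 FPKM), both at low levels, were not called. Their intervals, derived from the p-values, were wide, from -11.21 to 1.92 and from -9.08 to 2.06 on the log2 scale. ARR17 was listed at 0 in both groups and not tested.

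**Figure D2:**
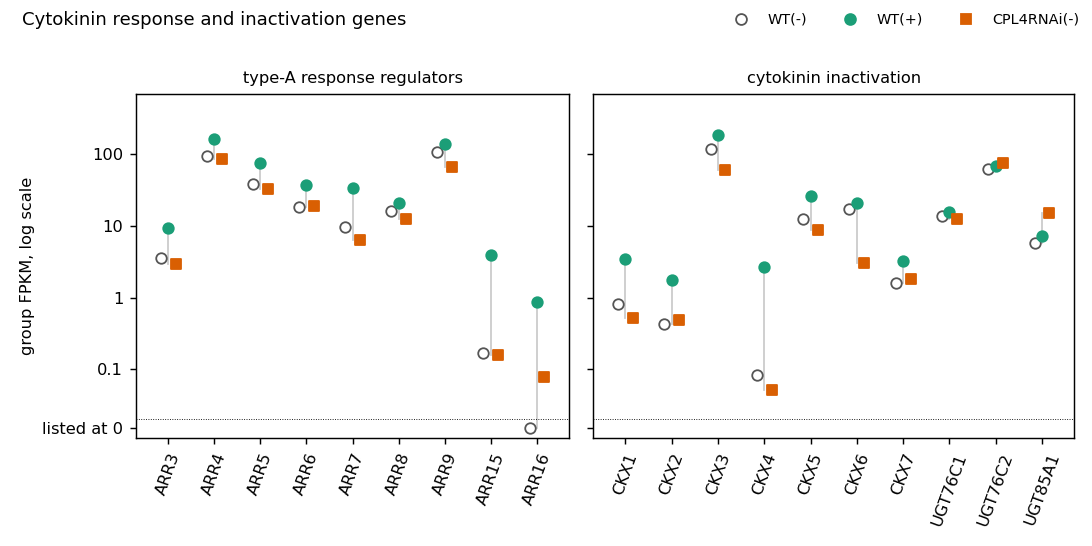
Group FPKM on a log scale of the type-A response regulators and the cytokinin inactivation genes in WT(-) (open circles), WT(+) (green circles) and CPL4RNAi(-) (orange squares); 1 point is the authors' value for a group of 3 samples, and points under the dotted line are listed at 0. For all 9 response regulators shown the orange square lies under the green circle, as for ARR7 at 6.35 against 33.5 FPKM; among the inactivation genes UGT85A1 and UGT76C2 lie above it.

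The upstream 250 bases of ARR7 are shown because this gene marks the cytokinin response that the labelled group missed. Capitals mark the letters AGATT or their reverse complement, the core sequence bound by type-B response regulators, at 106, 95 and 80 bases before the annotated start (RefSeq, TAIR10.1, chr1:6579315-6579564, minus strand).
ARR7: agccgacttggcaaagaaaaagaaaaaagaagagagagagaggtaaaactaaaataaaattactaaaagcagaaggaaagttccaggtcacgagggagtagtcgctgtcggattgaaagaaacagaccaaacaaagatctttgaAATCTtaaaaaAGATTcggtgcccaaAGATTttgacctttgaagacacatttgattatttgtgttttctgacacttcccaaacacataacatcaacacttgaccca
The core occurred in 7 of 10 type-A promoters of this length (70%) and in 63.7% of 27443 protein-coding promoters, so its presence did not set the family apart. The 4 promoters printed here were chosen after expression values and matches had been seen, and a match is not evidence of binding.

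Genes that inactivate cytokinin also mostly missed the treated wild type. Of 10 tested members 7 were called lower and 1 higher, with a median log2 fold of -1.59. In WT(+) over WT(-) 6 of 10 were called higher and none lower, and in CPL4RNAi(-) over WT(-) 2 of 8 were higher and 3 lower. The cytokinin oxidase CKX3 stood at 116 FPKM in WT(-), 185 in WT(+), 59.8 in CPL4RNAi(-) and 126 in CPL4RNAi(+). CKX6 showed the largest called fall of the list, from 20.8 to 2.99 FPKM (log2 fold -2.80, standard error at most 0.690), and here WT(-) was not called different from WT(+). CKX4 stood at 0.0828 FPKM in WT(-), 2.64 in WT(+) and 0.0509 in CPL4RNAi(-). It was called higher in WT(+) than in WT(-), but its log2 fold of -5.70 over WT(+) was not called, with an interval from -13.91 to 2.51. CKX5 (26.0 against 8.87 FPKM) and CKX1 (3.43 against 0.522 FPKM) were also called lower. CKX5 and CKX6 overlap another gene in the deposited loci, and whether strand was used in counting was not stated, so their values may hold reads of the neighbour. The glucosyltransferase UGT85A1, which adds glucose to zeatin, was the member called higher, at 15.0 against 7.26 FPKM. UGT76C2 was not called at 76.1 against 68.8 FPKM, with an interval of the log2 fold from -0.06 to 0.35.

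Cytokinin synthesis and activation genes divided. Of 9 tested members 2 were called higher, 3 lower and 4 not, with a median log2 fold of -0.06, and the other 9 of the 18 members were not tested. The shares over all tested features were 21.4% higher and 22.6% lower. LOG5, which releases active cytokinin from its nucleotide, fell from 17.2 FPKM in WT(+) to 1.36 in the labelled group, a log2 fold of -3.67 (standard error at most 0.904). Its relatives LOG3 (26.1 against 16.9 FPKM) and LOG4 (13.4 against 8.97 FPKM) were called higher. For LOG3 and LOG4 the untreated wild type was high too, at 29.7 and 14.8 FPKM, and both were called lower in WT(+) than in WT(-). The hydroxylase CYP735A2, needed for trans-zeatin, was called lower at 0.352 against 1.42 FPKM. IPT2 and IPT9, which modify transfer RNA, were not called, with log2 folds of 0.10 (interval -0.17 to 0.38) and -0.06 (interval -0.31 to 0.20).

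For cytokinin receptors and relay proteins, 3 of 20 tested members were called higher, 7 lower and 10 not, with a median log2 fold of -0.15. Over all tested features 21.4% were called higher and 22.6% lower. Wild type with 2iP over WT(-) gave none higher and 2 lower of 20, and CPL4RNAi(-) over WT(-) gave 2 higher and 7 lower. The receptor AHK4 was not called at 25.6 against 27.9 FPKM, with an interval from -0.33 to 0.08, while its relative AHK3 was called lower at 30.1 against 42.2 FPKM. The phosphotransfer protein AHP1 fell from 86.9 to 37.6 FPKM, and AHP2 rose from 31.6 to 40.4 FPKM. AHP6, an inhibitor that lacks the phosphate-accepting residue, rose from 2.58 FPKM in WT(+) to 5.98 in the labelled group (log2 fold 1.22, standard error 0.332). WT(-) held 8.31 FPKM of AHP6, and WT(+) was called lower than WT(-). Of the type-B regulators, ARR14 rose from 1.98 to 5.98 FPKM and ARR10 was not called at 37.9 against 37.5 FPKM (interval -0.19 to 0.22). The cytokinin response factor CRF4 fell from 26.7 to 16.5 FPKM.

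Several shoot meristem genes passed treated wild type although the labelled group was on shoot-inducing medium without 2iP. Of 19 tested members of the shoot meristem and regeneration list, 10 were called higher and 3 lower, with a median log2 fold of 0.54. Wild type responded to 2iP with 3 of 16 members called higher and none lower. In CPL4RNAi(-) over WT(-), 11 of 19 were higher and 2 lower.

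WUS, the homeobox gene that marks the organizing centre of the shoot meristem, was listed at 0 FPKM in WT(-) and WT(+), at 1.32 in CPL4RNAi(-) and at 1.28 in CPL4RNAi(+). It was called higher, and no fold is given against a group listed at 0. CUC1, which sets organ boundaries and precedes shoot meristems in callus (AT3G15170, chromosome 3, 5109883 to 5111447), held 1.88 FPKM in WT(-), 1.80 in WT(+), 17.8 in CPL4RNAi(-) and 24.2 in CPL4RNAi(+). Its level was 9.88-fold that of WT(+), with a standard error of the log2 fold of at most 0.815. The labelled groups were high with and without 2iP, and the wild-type groups low with and without it. CUC2, which acts with CUC1, rose from 11.5 to 28.0 FPKM. STM, which keeps meristem cells undifferentiated, stood at 0.0652 FPKM in WT(-), 0.0436 in WT(+), 21.7 in CPL4RNAi(-) and 21.9 in CPL4RNAi(+). Against WT(+) its log2 fold of 8.96 was not called (q-value 0.41, interval -6.30 to 24.22), whereas against WT(-) it was called higher. These group levels differ by a wide margin, but the standard error derived from the fold and the p-value was 7.79.

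The CLV1 receptor, which limits meristem size, rose from 1.65 to 4.23 FPKM, and the leaf-fate regulator AS2 from 0.324 to 2.64 FPKM. The adaxial-fate genes PHB, PHV and REV were all called higher, with PHB at 242 against 150 FPKM. KNAT1, another homeobox gene of the STM family, went the other way, to 6.61 FPKM (log2 fold -1.46), and KNAT6 was called lower at 26.9 against 38.1 FPKM. RAP2.6L, a transcription factor of shoot regeneration, fell from 157 to 109 FPKM, close to the 117 FPKM of WT(-). ESR1, which promotes shoot regeneration and is induced by cytokinin, stood at 0.397 FPKM in WT(-), 1.39 in WT(+), 0.769 in CPL4RNAi(-) and 4.54 in CPL4RNAi(+). Its log2 fold of -0.85 was not called (q-value 0.051), with an interval from -1.55 to -0.14. The dedifferentiation factor WIND1 (146 against 158 FPKM, interval -0.33 to 0.09) and HAM1 (22.8 against 23.0 FPKM, interval -0.23 to 0.20) were not called. CLV3, ESR2 and CUC3 were not tested, and their highest level in the compared groups was the 0.521 FPKM of CUC3 in the labelled group.

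Cell division genes were higher across most of their list. Of 28 tested members 21 were called higher, 1 lower and 6 not, with a median log2 fold of 0.56 and 2 calls of at least 2-fold. The 2iP response of wild type held 1 higher and 1 lower of 28, and in CPL4RNAi(-) over WT(-) 22 were higher and 1 lower of 28. CYCD3;1, a cytokinin-induced cyclin that drives entry into the cycle, held 76.1 FPKM in WT(-), 100 in WT(+), 230 in CPL4RNAi(-) and 308 in CPL4RNAi(+). Its log2 fold was 1.20 with a standard error of at most 0.296, and the treated wild type was itself called higher than WT(-). The mitotic cyclin CYCB1;1 rose from 14.8 to 34.3 FPKM and the replication clamp PCNA1 from 51.0 to 101 FPKM. All 6 subunits of the replicative helicase in the list, MCM2 to MCM7, were called higher, MCM3 the most at 46.7 against 25.7 FPKM and MCM6 the least at 24.8 against 16.4 FPKM. CYCD3;2 was the member called lower, at 36.1 against 45.7 FPKM. CYCD3;3 and CYCB1;4 were not called, with intervals from 0.03 to 0.45 and from -0.10 to 0.35.

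Xylem genes, which treated wild type had raised, were mostly called higher again in the labelled group. Of 14 tested members 9 were called higher, 1 lower and 4 not, with a median log2 fold of 0.86. Wild type with 2iP exceeded WT(-) in 10 of 12 tested members and CPL4RNAi(-) exceeded WT(-) in 13 of 14, with none lower in either comparison. The largest called folds over WT(+) were those of the regulators of vessel identity and of secondary wall synthesis. VND6 rose from 1.04 to 8.92 FPKM (8.56-fold, standard error of the log2 fold at most 0.764) and VND7 from 0.832 to 6.03 FPKM (7.25-fold, standard error of the log2 fold at most 0.705). In WT(-) they stood at 0.228 and 0.338 FPKM. MYB46 and MYB83, which turn on secondary wall synthesis below them, rose from 0.631 to 2.87 FPKM and from 0.154 to 1.25 FPKM, and the xylan synthesis gene IRX9 from 1.27 to 4.24 FPKM.

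Peptidase, cellulose synthase and laccase genes of the list showed smaller folds. XCP1 (AT4G35350, chromosome 4, 16810482 to 16812009), a peptidase that digests the dying vessel cell, held 2.57 FPKM in WT(-), 17.1 in WT(+), 32.3 in CPL4RNAi(-) and 21.0 in CPL4RNAi(+). Its log2 fold over WT(+) was 0.92, with a standard error of at most 0.226. XCP2 was alike in order, at 1.83, 13.5, 23.4 and 15.8 FPKM. The 3 cellulose synthase subunits of secondary walls divided, with CESA8 called higher at 3.58 against 2.22 FPKM, and CESA4 and CESA7 not called. CESA4 stood at 0.420 FPKM in WT(-), 2.87 in WT(+) and 5.48 in CPL4RNAi(-), with an interval from 0.10 to 1.76 and a q-value of 0.0716. Of the lignin laccases, LAC4 was not called at 1.95 against 1.75 FPKM (interval -0.24 to 0.56), nor was LAC17 at 2.56 against 3.35 FPKM (interval -0.82 to 0.05). LAC11 was called lower at 3.61 against 5.90 FPKM, and CESA4, CESA7, CESA8, LAC11 and LAC17 overlap another gene in the deposited loci, as REV and MCM7 do. In bulk tissue, more cells of a type and more RNA per cell cannot be told apart.

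The upstream 250 bases of XCP1 and CESA4 are shown because these genes hold the tracheary element regulating element, in capitals. Its letters are CTT, a free base, AAAGC, a free base and A, searched on both strands. It starts 75 bases before the annotated start of XCP1 (RefSeq, TAIR10.1, chr4:16810232-16810481, plus strand) and 20 bases before that of CESA4 (chr5:17714140-17714389, plus strand).
XCP1: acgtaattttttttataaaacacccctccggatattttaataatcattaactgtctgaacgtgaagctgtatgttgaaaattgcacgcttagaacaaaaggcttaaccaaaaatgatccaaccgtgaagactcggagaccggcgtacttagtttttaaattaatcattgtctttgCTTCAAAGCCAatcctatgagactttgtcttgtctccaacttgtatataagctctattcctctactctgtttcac
CESA4: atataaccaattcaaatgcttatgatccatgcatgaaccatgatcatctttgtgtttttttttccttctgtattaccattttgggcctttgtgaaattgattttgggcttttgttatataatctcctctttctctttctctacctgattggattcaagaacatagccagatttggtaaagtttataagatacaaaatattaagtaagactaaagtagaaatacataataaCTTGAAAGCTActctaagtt
These were the 2 matches among 15 xylem promoters (13.3%), where 101 of 27443 promoters (0.368%) matched on either strand. The regulators VND6 and VND7 held no match in this window. The starts are those of RefSeq, which for CESA4 and ARR7 lie further upstream than the start in the deposited table.

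Cambium genes were mixed, and the phloem genes SUC2, SEOR1 and APL missed the level of WT(+). PXY, the receptor that keeps cambium cells dividing, rose from 29.3 to 59.5 FPKM (log2 fold 1.02, standard error at most 0.252), and WT(-) held 10.7 FPKM. WOX4, which acts downstream of PXY, was called lower at 10.1 against 13.0 FPKM but stood above the 4.26 FPKM of WT(-). ANT, a growth regulator of cambium, followed WOX4, at 3.83 FPKM in WT(-), 14.8 in WT(+) and 9.68 in CPL4RNAi(-). WOX14 was lower than in either wild-type group, at 4.85 FPKM against 12.7 in WT(+) and 10.7 in WT(-). The vascular regulators ATHB8 (51.0 against 43.4 FPKM, interval 0.03 to 0.44) and ATHB15 (87.1 against 74.3 FPKM, interval 0.02 to 0.44) were not called. In all, 1 of 7 cambium members was called higher and 4 lower (median log2 fold -0.37), beside 21.4% and 22.6% of all tested features.

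Of 6 tested phloem members 3 were called lower, 1 higher and 2 not, with a median log2 fold of -0.67. Over all tested features 22.6% were called lower and 21.4% higher. SUC2, the sucrose transporter of companion cells, held 23.7 FPKM in WT(-), 33.6 in WT(+), 8.52 in CPL4RNAi(-) and 26.7 in CPL4RNAi(+). Its log2 fold was -1.98 with a standard error of at most 0.488. The sieve element protein gene SEOR1 fell from 6.54 to 1.99 FPKM and the phloem identity gene APL by 0.96 on the log2 scale from 6.41 FPKM. OPS, which promotes early phloem, was called higher at 22.8 against 18.9 FPKM. CALS7 (2.45 against 2.81 FPKM, interval -0.45 to 0.06) and BRX (4.05 against 5.30 FPKM, q-value 0.0592) were not called. The share of each vascular cell type was not measured.

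**Figure D3:**
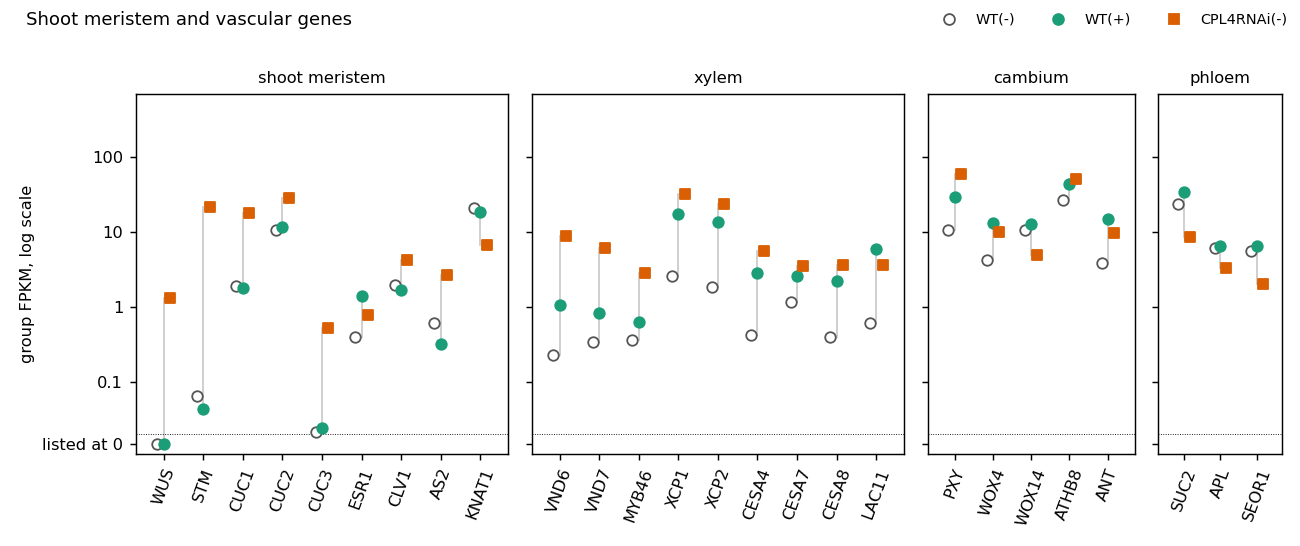
Group FPKM on a log scale of shoot meristem, xylem, cambium and phloem genes in WT(-) (open circles), WT(+) (green circles) and CPL4RNAi(-) (orange squares); 1 point is the authors' value for a group of 3 samples, and points under the dotted line are listed at 0. WUS, STM and CUC1 are low in both wild-type groups and higher in CPL4RNAi(-), XCP1 and XCP2 climb from WT(-) to WT(+) to CPL4RNAi(-), and SUC2 in CPL4RNAi(-) lies under both wild-type groups.

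Root tissue markers split by cell type. Among genes of the Casparian strip, the lignin barrier of the endodermis, CASP1, CASP2, MYB36 and ESB1 were called higher, CASP4 was not called and CASP5 was not tested. CASP1, a scaffold protein of the strip, held 9.07 FPKM in WT(-), 1.88 in WT(+), 26.5 in CPL4RNAi(-) and 7.23 in CPL4RNAi(+), a log2 fold of 3.81 over WT(+) (standard error at most 0.941). CASP2 stood at 2.51, 0.684, 7.79 and 2.33 FPKM in the same order of groups. Each genotype label was lower with 2iP than without, and each medium was higher under the CPL4RNAi label. MYB36, the transcription factor that turns on the CASP genes (AT5G57620, chromosome 5, 23334817 to 23336566), was high in both labelled groups, at 11.7, 9.68, 110 and 74.1 FPKM in that order. ESB1, which positions the lignin, rose from 3.41 to 15.2 FPKM. CASP1 and ESB1 overlap another gene in the deposited loci.

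SMB, a root cap regulator, was called higher at 20.3 against 5.16 FPKM, and its relative BRN1 was not called at 3.92 against 3.11 FPKM (interval -0.12 to 0.79). RHD6, which starts root hairs, was called lower at 3.12 against 6.34 FPKM, and the root hair expansin EXPA7 was not called (interval -0.74 to 0.51). Over the epidermis, endodermis and cap list, 6 of 11 tested members were called higher and 1 lower, with a median log2 fold of 2.27. Of 10 tested for the 2iP response of wild type, 6 were called lower and none higher, and in CPL4RNAi(-) over WT(-) 6 of 11 were higher and 1 lower.

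Regulators of the root stem cell niche and of callus mostly missed WT(+). Of 15 tested members 9 were called lower, 2 higher and 4 not, with a median log2 fold of -0.72. In CPL4RNAi(-) over WT(-) 10 of 15 were lower and none higher, and in WT(+) over WT(-) 4 were lower and 1 higher. WOX5 fell from 135 to 55.2 FPKM (log2 fold -1.29, standard error at most 0.319), while WT(-) stood at 155 FPKM. WOX11, which starts roots from explants, fell from 46.4 to 11.9 FPKM and PLT5 from 7.80 to 2.41 FPKM. LBD16, LBD17 and LBD18, auxin-induced genes of lateral root and callus formation, were called lower, LBD16 at 35.0 against 66.0 FPKM. LBD29 was not called, at 6.91 FPKM in WT(-), 3.04 in WT(+) and 3.09 in CPL4RNAi(-), with an interval from -0.44 to 0.49. The root regulators PLT2 (17.0 against 11.3 FPKM) and SHR (58.9 against 46.3 FPKM) were called higher, and PLT3 was not called at 213 against 194 FPKM (interval -0.09 to 0.37).

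Early auxin response genes fell below treated wild type in most cases. Of 18 tested members 12 were called lower, 2 higher and 4 not, with a median log2 fold of -0.65. IAA3, a repressor of auxin response that cytokinin also induces, held 9.85 FPKM in WT(-), 22.2 in WT(+), 3.76 in CPL4RNAi(-) and 10.9 in CPL4RNAi(+). Its log2 fold was -2.56 with a standard error of at most 0.631. IAA5 stood at 13.4, 18.6, 4.14 and 19.4 FPKM in the same order. GH3.6, which couples auxin to amino acids, fell from 310 to 106 FPKM and was at 294 FPKM in WT(-). Its relatives GH3.5 (339 against 369 FPKM, interval -0.37 to 0.13) and GH3.3 (450 against 524 FPKM, interval -0.49 to 0.05) were not called. IAA20 (14.1 against 10.4 FPKM) and IAA7 (4.17 against 2.69 FPKM) were the members called higher. For WT(+) against WT(-) 7 of 18 were higher and 2 lower, and in CPL4RNAi(-) over WT(-) 1 was higher and 11 lower.

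Of 15 tested genes of auxin synthesis and transport 4 were called higher, 4 lower and 7 not, near the shares over all tested features (21.4% higher and 22.6% lower). TAA1 of auxin synthesis (5.67 against 2.73 FPKM) and the exporter PIN2 (12.6 against 6.55 FPKM) were called higher, and each stood near its level in WT(-), 6.30 and 13.0 FPKM. The importer LAX1 fell from 24.7 to 10.9 FPKM and YUC4 of auxin synthesis from 6.10 to 3.85 FPKM. The exporter PIN6 held 0.495 FPKM in WT(-), 5.52 in WT(+) and 4.17 in CPL4RNAi(-), and was called lower than WT(+) (log2 fold -0.41, q-value 0.0357). The exporter PIN3 and the importer AUX1 were not called, with intervals from 0.02 to 0.43 and from -0.41 to 0.01.

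Defence and dehydration genes stood lower in nearly all tested members of their lists. All 12 tested members of the salicylic acid and immune list were called lower in the labelled group, with a median log2 fold of -1.95 beside the 22.6% of all tested features called lower. In WT(+) over WT(-) 2 of 12 were higher and none lower, and in CPL4RNAi(-) over WT(-) all 12 were lower. ICS1, the main salicylic acid synthesis gene, held 56.3 FPKM in WT(-), 64.0 in WT(+), 16.0 in CPL4RNAi(-) and 30.8 in CPL4RNAi(+). SARD1, a transcription factor that switches on ICS1 (AT1G73805, chromosome 1, 27745427 to 27749178), stood at 60.9, 67.1, 11.6 and 22.3 FPKM in that order, a log2 fold of -2.53 over WT(+) (standard error at most 0.623). Both wild-type groups were high and both labelled groups low for each of these genes. WRKY70 fell from 153 to 29.8 FPKM. The pathogenesis-related genes PR2, a glucanase, and PR5, a thaumatin-like protein, showed the widest gaps. PR2 fell from 8.33 to 0.124 FPKM (log2 fold -6.07, standard error 1.63) and PR5 from 6.95 to 0.279 FPKM (log2 fold -4.64, standard error 1.19). PR1, another marker of the pathway, was at 0.077 FPKM in WT(+) and listed at 0 in CPL4RNAi(-), and was not tested.

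Abscisic acid, a hormone of water stress, acts by releasing kinases from type 2C protein phosphatases, whose genes it also induces. Of 13 tested members of the abscisic acid and dehydration list 12 were called lower and none higher, with a median log2 fold of -2.02. In WT(+) over WT(-) 2 of 13 were higher, and in CPL4RNAi(-) over WT(-) 12 were lower. The phosphatase gene HAI2 (AT1G07430, chromosome 1, 2280835 to 2282828) held 24.6 FPKM in WT(-), 28.0 in WT(+), 3.28 in CPL4RNAi(-) and 3.73 in CPL4RNAi(+), a log2 fold of -3.09 over WT(+) (standard error at most 0.763). HAI1 fell from 64.9 to 8.96 FPKM and the dehydration gene RD29A from 6.84 to 0.490 FPKM. NCED3, the key enzyme gene of abscisic acid synthesis under drought, was called lower at 0.575 against 4.03 FPKM. The phosphatase gene HAB2 was the tested member not called, at 26.2 against 29.8 FPKM with an interval from -0.40 to 0.03.

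The upstream 250 bases of HAI2 are shown because the core of the abscisic acid response element, ACGTG, occurs in them 4 times on either strand (capitals). The matches start 239, 165, 160 and 12 bases before the annotated start, and those at 165 and 160 are adjacent (RefSeq, TAIR10.1, chr1:2282829-2283078, minus strand).
HAI2: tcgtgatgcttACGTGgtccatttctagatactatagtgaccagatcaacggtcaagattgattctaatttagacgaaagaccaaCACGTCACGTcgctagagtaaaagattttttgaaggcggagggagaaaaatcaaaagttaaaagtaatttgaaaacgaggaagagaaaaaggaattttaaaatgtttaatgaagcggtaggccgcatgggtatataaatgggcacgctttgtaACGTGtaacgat
This core stood in 12 of 17 promoters of the abscisic acid list (70.6%) and in 22.9% of all 27443 promoters. The jasmonate list described below was close, with 11 of 16 promoters (68.8%), so the core was not particular to the abscisic acid list. HAI1, RD29A and NCED3, also called lower, held no match in this window. The W-box core TTGAC, to which WRKY factors bind, stood in 7 of 13 promoters of the salicylic acid list (53.8%) and in 44.9% of all promoters.

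Jasmonate genes were less uniform, with 1 of 11 called higher, 5 lower and 5 not (median log2 fold -0.61). VSP1, a storage protein gene induced by jasmonate, was higher in both groups with 2iP than in both groups without it. It held 0.329 FPKM in WT(-), 7.29 in WT(+), 0.0920 in CPL4RNAi(-) and 14.2 in CPL4RNAi(+). For CPL4RNAi(-) over WT(-) VSP1 was not tested. Its log2 fold of -6.31 over WT(+) was called at a q-value of 0.0434, with an interval from -11.41 to -1.21. JAZ1, a repressor of the pathway, fell from 45.8 to 29.8 FPKM and the synthesis gene OPR3 from 30.0 to 20.0 FPKM, while JAZ10 rose from 5.92 to 8.43 FPKM. JAZ2 (25.6 against 25.9 FPKM, interval -0.26 to 0.22) and AOS (5.71 against 5.58 FPKM, interval -0.26 to 0.33) were not called.

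**Figure D4:**
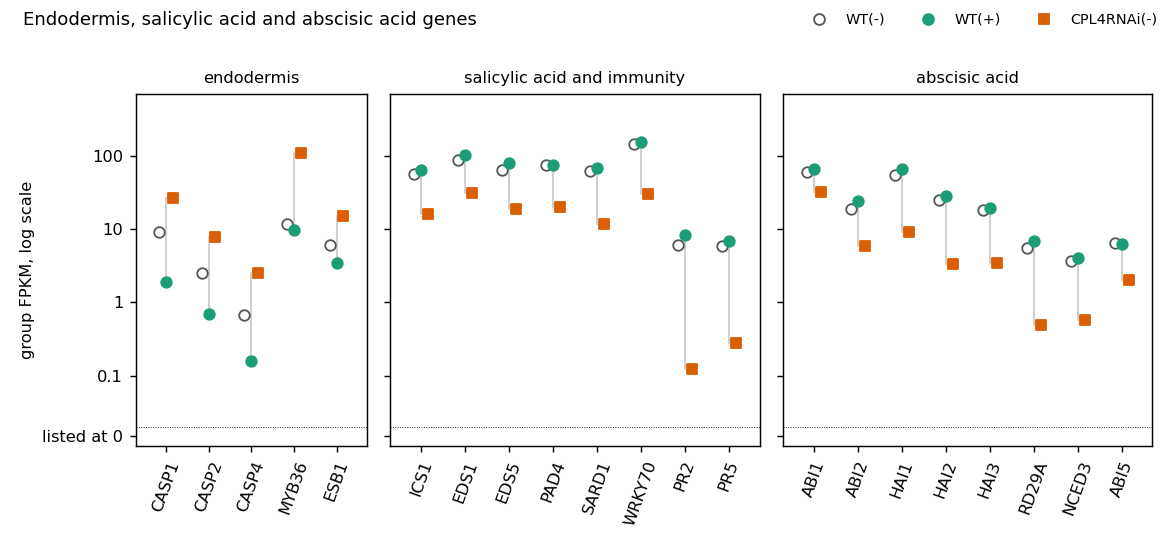
Group FPKM on a log scale of endodermis, salicylic acid and abscisic acid genes in WT(-) (open circles), WT(+) (green circles) and CPL4RNAi(-) (orange squares); 1 point is the authors' value for a group of 3 samples. The endodermis genes are highest in CPL4RNAi(-), as MYB36 at 110 against 9.68 FPKM in WT(+), and the salicylic acid and abscisic acid genes are lowest there, as SARD1 at 11.6 against 67.1 FPKM.

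Across all features, the largest called folds fell outside the cytokinin genes. Among genes with at least 5 FPKM in the higher group, those called higher included AGO9, an Argonaute protein of small RNA silencing known from the ovule, at 8.35 against 0.104 FPKM (log2 fold 6.33). The glutathione S-transferase gene GSTF14 rose from 0.665 to 42.7 FPKM, and WT(-) held 9.80 FPKM. MLP28, of the major latex protein family, rose from 3.64 to 224 FPKM, ARI13 of the Ariadne family from 0.337 to 11.3 FPKM, and NUB, a zinc finger gene of lateral organs, from 0.364 to 9.49 FPKM. AGO9, MLP28, ARI13 and NUB were also low in WT(-), between 0.0419 FPKM for AGO9 and 1.46 FPKM for MLP28. They were high in CPL4RNAi(+), between 7.76 FPKM for NUB and 315 FPKM for MLP28. In CPL4RNAi(-) over WT(-) AGO9 was not called (q-value 0.105), while MLP28, ARI13 and NUB were called higher. The largest called losses, besides VSP1, PR2 and PR5, included the galactinol synthase gene GolS2 (0.270 against 8.79 FPKM) and the abscisic acid transporter gene ABCG40 (0.362 against 8.90 FPKM). LEA4-5, a protective protein of dry tissue, fell from 15.9 to 0.701 FPKM, the germin-like gene GLP6 from 8.96 to 0.430 FPKM and the transcription factor gene MYB62 from 9.41 to 0.475 FPKM. In WT(-) these 5 genes stood between 6.58 FPKM for GolS2 and 15.4 FPKM for LEA4-5. In 37 calls a group was listed at 0, which includes WUS.

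**Figure D5:**
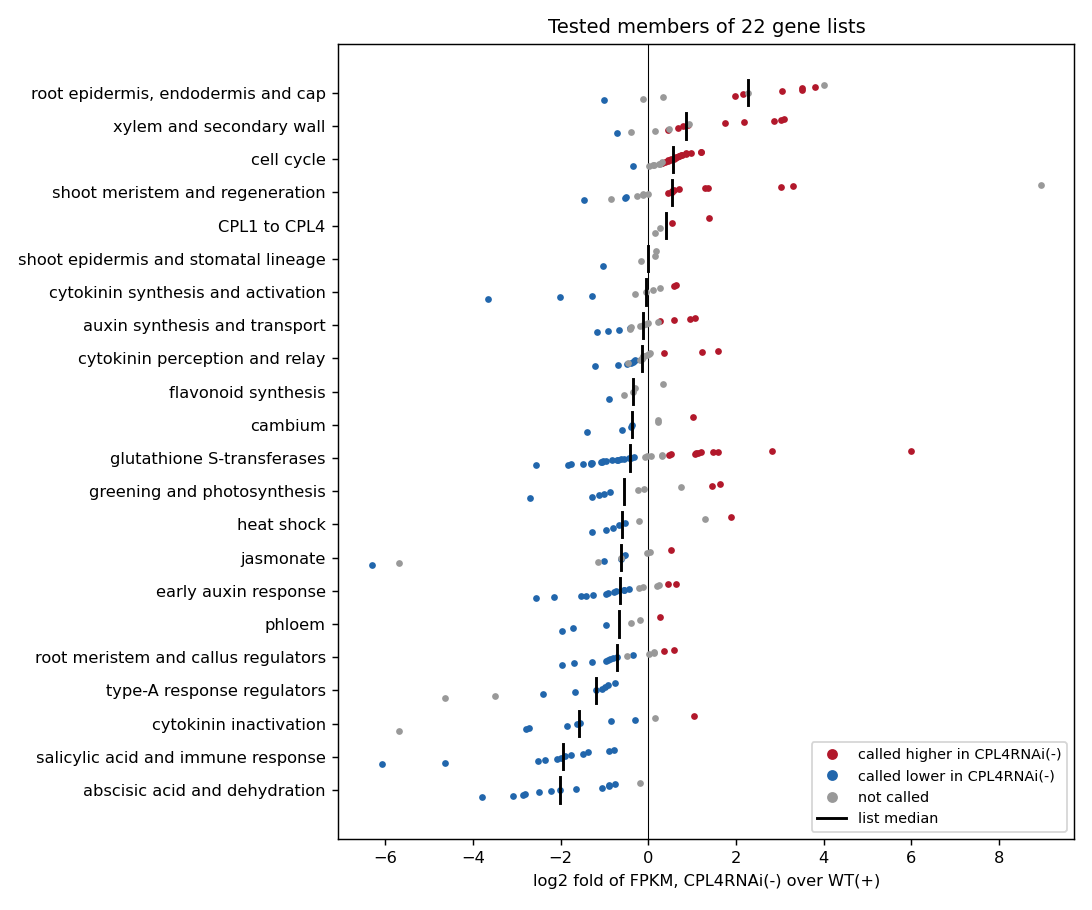
Log2 fold of FPKM, CPL4RNAi(-) over WT(+), of each tested member of 22 gene lists (points, coloured by call) with the median of each list (black bars), ordered by median; members with a group listed at 0, such as WUS, are in the medians but have no point. The abscisic acid, salicylic acid, cytokinin inactivation and type-A response regulator lists have medians from -2.02 to -1.20, and the root epidermis, endodermis and cap list has the highest median, 2.27.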

How the data were processed

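Total RNA of root explants was sequenced as stranded libraries depleted of ribosomal RNA, with paired reads of 125 nt, per the labels' protocols. The submitters' processing notes name bcl2fastq (version 2.17.1.14), TopHat2 (version 2.0.14), Cuffdiff (version 2.2.1.3) and the TAIR10 build; options and the use of strand in counting are not given in the sources used here. The authors' deposited table holds 1 FPKM value per feature and group. It also holds a p-value and a q-value for each of the 6 pairs of groups, per the file headers. The deposited q-value was checked and departs by at most 5.3e-07 from a Benjamini-Hochberg adjustment of the 115069 p-values of all pairs together.

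Folds were computed from the FPKM columns without a pseudocount. No sample-level test could be run, and the p- and q-values are the authors'. The standard error was the size of the log2 fold over the normal quantile of the p-value, and intervals are 1.96 such errors to each side. Outside the smallest p-value its median over tested features was 0.133, and the median half-width of the interval of the 10810 features not called was 0.261. The calculation was run on simulated normal folds whose p-values came from the same formula. That run checks the arithmetic, and whether a normal quantile suits the authors' p-values was not tested.

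Of the 33557 features, 32809 (97.8%) matched a RefSeq gene by identifier. Of 24 lists, 22 were made by symbol or family, and the plastid and mitochondrial genomes are the others. Members and lists were chosen with earlier results of these data known. Named in any case were the CPL genes, type-A regulators, selected meristem, cell cycle and xylem genes. Added from each list were the 3 members called higher and 3 called lower with the largest fold at 5 FPKM or more in the higher group, and the 2 uncalled members with the narrowest interval. Across all genes the 12 largest folds each way and the 6 calls each way listed at 0 in the other group were added. Genes without a well-known symbol were left out, and some further list members were named after their values were seen. Some list members are not reported here individually, and the counts and medians of their lists include them. Upstream sequences of 250 bases came from RefSeq TAIR10.1. Results were recomputed at a q-value of 0.01, with at least a 2-fold change, with 1 added to each FPKM, without genes under 1 FPKM in both groups, with other sets of genes in the adjustment, and after recentring. Scripts ran in Python 3.11.15 and used SciPy 1.17.1, pandas 2.3.3, numpy 2.4.6 and, for the plots, matplotlib 3.10.9.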

Additional observations from a re-analysis of the deposited data

How the results depend on the processing

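No paired analysis was possible because the table holds group values without replicates, and for the same reason no replicate could be left out; 1 aberrant sample could not be seen, and depth is unknown. Directions were not put to a test, since other thresholds, other adjustments and an added 1 FPKM cannot change the sign of a fold. A 2-fold minimum left 1196 of 4131 genes called higher and 1227 of 4368 called lower, and among list members 5 shoot meristem, 5 xylem and 2 cell cycle genes called higher, and 4 type-A regulators, 3 root meristem and callus regulators and 5 early auxin genes called lower. With a pseudocount of 1 added to that minimum the counts were 755 and 903, with 4 shoot meristem, 4 xylem and 2 cell cycle genes higher, and 4 type-A regulators, 4 cytokinin inactivation genes, 3 root meristem and callus regulators and 5 early auxin genes lower. At a q-value of 0.01, 3116 were higher and 3407 lower, and LOG4, AHP2, LAC11, OPS, IAA20, PIN6, JAZ10, VSP1 and LHCA4 were no longer called. Adjustment within genes at 1 FPKM or more (4228 and 4484), within the comparison (4291 and 4508) or within nuclear protein-coding genes (4205 and 4353) brought in ESR1, BRX and GSTU22. Recentring took off the median log2 fold of features at 5 FPKM or more in both groups, only -0.0082, and kept the q-values. It moved no call.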

Other observations

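Glutathione S-transferases, detoxifying enzymes, went both ways, with 10 of 34 tested members called higher and 19 lower (median log2 fold -0.41). GSTU25 rose from 62.7 FPKM in WT(+) to 146 in the group labelled CPL4RNAi(-), and GSTU27 from 10.6 to 32.1 FPKM. GSTF2 fell from 999 to 169 FPKM and GSTF3 from 13.6 to 4.02 FPKM; these are near-identical copies whose reads may have been split. GSTU11 fell from 27.5 to 7.78 FPKM, and GSTU8 was not called at 114 against 117 FPKM.

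Heat shock genes mostly stood lower, with 5 of 8 called lower and 1 higher (median log2 fold -0.60), and in WT(+) over WT(-) 5 of 7 were higher. MBF1C, a heat stress coactivator gene, held 32.8 FPKM in WT(-), 58.9 in WT(+) and 24.1 in CPL4RNAi(-), and HSP70 64.9, 86.2 and 54.2 FPKM. HSP18.2 was called higher at 4.15 against 1.12 FPKM. MBF1C overlaps another gene.

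Greening genes divided, with 5 of 10 tested called lower and 2 higher, the latter near the 21.4% of all tested features. The antenna protein gene LHCB4.1 fell from 25.8 to 10.6 FPKM and the chlorophyll synthesis gene PORC by 1.12 on the log2 scale, while CHLH, a subunit of the enzyme that inserts magnesium, rose from 0.645 to 1.76 FPKM. Of 5 tested flavonoid genes, CHS was called lower at 3.91 against 7.27 FPKM, and it overlaps another gene. Of 4 tested shoot epidermis and stomatal genes, PDF1 was called lower at 10.1 against 20.7 FPKM, and PDF2 and FDH were not called. In the plastid genome 12 of 61 tested features were higher and 6 lower, with RBCL of the carbon-fixing enzyme at 966 against 583 FPKM and the photosystem gene PSBA at 1087 against 1689 FPKM. In the mitochondrial genome 11 of 54 were higher and 5 lower, and ORF240A stood at 881 against 295 FPKM. For both genomes the share called higher was near the 21.4% of all tested features, and the share called lower was under the 22.6%.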
